A study of Sus scrofa with 9 samples.

Results

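Base excision repair glycosylases and apurinic/apyrimidinic (AP) endonucleases were examined for exonic 5-hydroxymethylcytosine (5hmC) in swine mesenchymal stem/stromal cells (MSCs). The genes were chosen by name, as the AP endonuclease genes APEX1 and APEX2 and the glycosylase genes OGG1, MUTYH, NTHL1, NEIL1, NEIL2, NEIL3, UNG and SMUG1, and all 10 of 10 were found in both deposited tables, among 18933 and 18992 genes. They were chosen partly because APEX2 was known to be low in Obese-MSCs in these libraries. The Obese versus Lean values of these genes are thus given as a description. Calls by the study's criteria are counted there but not read as tests. The 9 libraries were hydroxymethylated DNA immunoprecipitation sequencing (hMeDIP-seq) libraries of MSCs from subcutaneous abdominal fat of female domestic pigs, 3 in each of 3 groups. Lean-MSCs came from pigs on standard chow and untreated Obese-MSCs from pigs on a high-fat/high-fructose diet. Either diet was fed for 16 weeks from 3 months of age. Treated Obese-MSCs were Obese-MSCs that received vitamin-C in vitro (50 µg/mL, over 48 h). All MSCs had been expanded in culture on platelet lysate before the assay, so the values describe cultured cells and not fat tissue. The paper states that the growth medium itself contained some vitamin-C. Libraries called untreated or without vitamin-C thus lacked only the added dose. Obese-MSCs were grown for a further passage with or without added vitamin-C, so treated and untreated libraries may share animals. Neither the labels nor the methods pair them, and the tests took the libraries as independent. The same untreated libraries served against Lean-MSCs, whose passage the methods do not give separately. A difference in passage, if there was one, cannot be told apart from diet there.

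In base excision repair, a glycosylase cuts a damaged or unwanted base from its sugar, an AP endonuclease cuts the DNA backbone at the baseless site, and polymerases and ligases fill and close the gap. The same steps complete active DNA demethylation. TET enzymes oxidise 5-methylcytosine to 5hmC and further to forms that the glycosylase TDG removes, and AP endonuclease then acts on the site that is left. In the data described here, 5hmC was measured on the exons of the repair genes themselves, and neither their mRNA nor their activity was measured.

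Values are normalized counts per gene, the exonic hMeDIP reads after the authors' normalization, which was done separately for the table of Obese- and Lean-MSCs and for the table of treated and untreated Obese-MSCs. They are not divided by exon length, so levels were not compared between genes. Library totals ran from 494566 to 522269 in the first table and in the second from 547242 to 593846. In some libraries low values fell near whole multiples of a step. The step was 0.98 normalized counts in the Lean library numbered 8 and 1.03 in that numbered 9, where 100% of the values between 0.4 and 5.5 lay within 0.1 of a step of a multiple, while the share was as low as 47.1% in the untreated Obese library numbered 1. What 1 read was worth was thus not recovered for every library. Group means of these repair genes ran from 1.05 to 25.1, and means under 3 normalized counts were given no fold change. Both tables hold the untreated Obese libraries, whose values of at least 1 for the repair genes were between 1.07 and 1.19 times as high in the second. These libraries form the numerator of the Obese versus Lean ratio and the denominator of the treated versus untreated ratio. Opposite signs of these ratios in a gene are thus not separate observations.

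The study's stated criteria were applied to the deposited values, and a gene met them when a two-sided equal-variance test gave an unadjusted p of 0.05 or less and the ratio of group means was at least 1.4 or at most 0.7. In Obese- versus Lean-MSCs 4.5% of all genes met them, 391 as high (2.07%) and 461 as low (2.43%). The groups of 11.8% of genes did not overlap there, 5.7% with Obese-MSCs high and 6.06% with Obese-MSCs low. In treated versus untreated Obese-MSCs 1.92% met the criteria, 211 as high (1.11%) and 153 as low (0.806%), and the groups of 5.91% did not overlap, 3.24% with treated libraries high and 2.67% with them low. With limma over all genes of a table and Benjamini-Hochberg adjustment, 0 of 15146 genes passed an adjusted p of 0.05 in the first comparison and 0 of 15194 in the second, while 1031 (6.81%) and 148 (0.974%) had an unadjusted p of 0.05 or less. The exons of the MSC marker genes NT5E, THY1 and ENG carried group means between 17.1 and 64.0 normalized counts. Of the genes for markers that the study lists as absent from MSCs, CD34 and PTPRC carried between 17.8 and 59.3, and CD14 had group means of 2.83 or less and was listed at 0 in all Lean libraries. The 7 genes of endothelial cells, macrophages and adipocytes (PECAM1, CDH5, VWF, CD68, CSF1R, ADIPOQ and PLIN1) summed to 352 to 404 normalized counts in Obese-MSCs and 303 to 371 in Lean-MSCs, and to 338 to 417 in treated and 396 to 449 in untreated libraries. Of these 13 marker genes 0 met the criteria in either comparison. ENG was higher without overlap in Obese-MSCs (57.3 ± 8.72 against 40.4 ± 10.2, SD, n = 3 each). So was CD14, at low values (0.650, 0.924 and 4.49 against 0 in all Lean libraries). CDH5 was lower without overlap in treated libraries (13.8 ± 2.12 against 17.2 ± 0.988). Their part in the results for the repair genes was not tested. Exonic 5hmC is not expression and does not name a cell type.

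**Figure D1:**
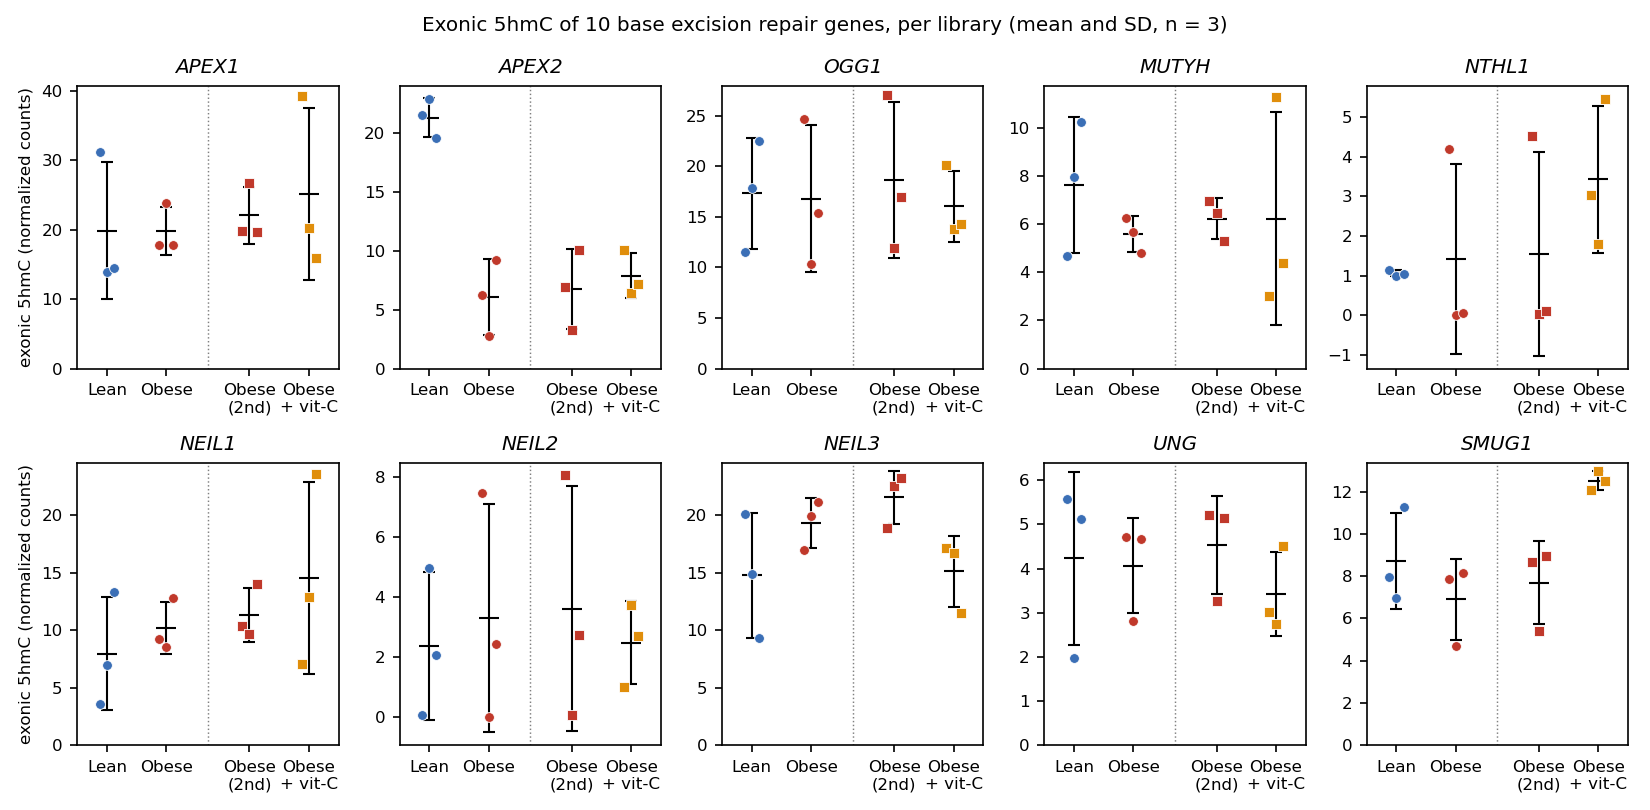
Exonic 5hmC in normalized counts of the 10 repair genes in every library, with the mean and SD (n = 3). Circles left of the dotted line are Lean (blue) and untreated Obese libraries (red) in their table, and squares right of it are the same untreated libraries in the second table (red, 2nd) and vitamin-C-treated libraries (orange). For APEX2, left of the dotted line, all Lean points lie above 19 and all Obese points below 10 normalized counts. For SMUG1, right of it, all treated points lie above the untreated ones.

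APEX2 was the repair gene with the widest separation between Obese- and Lean-MSCs, and it was the one for which the set was assembled. It encodes the less active of the AP endonucleases, with a 3′ to 5′ exonuclease activity that is stimulated by PCNA, and lies on chromosome X from 47862682 to 47870579 (Sscrofa11.1). The Obese libraries had 6.22, 2.78 and 9.19 normalized counts and the Lean libraries 21.5, 22.8 and 19.5. The highest Obese library was below the lowest Lean library by more than the range of either group. The group means were 6.07 ± 3.21 and 21.3 ± 1.66 (SD, n = 3 each), a log2 ratio of -1.81, which stayed between -2.24 and -1.47 when any 1 library was left out. Of 15177 genes with at least 3 normalized counts in both groups, APEX2 ranked number 5 from the lowest ratio.

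With vitamin-C, the APEX2 values of treated and untreated Obese libraries overlapped. Treated libraries had 10.1, 6.44 and 7.13 normalized counts and untreated libraries 6.91, 3.30 and 10.0 in the second table. The lowest library was untreated and the highest treated, and the means of 7.87 ± 1.92 and 6.74 ± 3.36 (SD, n = 3 each) gave a log2 ratio of 0.22. Without the untreated library numbered 2, the lowest of them, this ratio was -0.10. Because the untreated libraries also served in the comparison that chose APEX2, no test is read from this ratio. Lean libraries were not in the second table, and the distance of the treated libraries from them was not tested.

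The other AP endonuclease gene, APEX1, showed no such separation. APEX1 encodes the main AP endonuclease of the cell and lies on chromosome 7 from 78451845 to 78454938. Obese libraries had 17.7, 23.8 and 17.8 normalized counts, and Lean libraries 31.2, 13.9 and 14.4. All Obese values lay inside the Lean range, and the means of 19.8 ± 3.47 and 19.8 ± 9.84 (SD, n = 3 each) gave a log2 ratio of -0.0061. Within a library, the ratio of APEX2 to APEX1 was 0.351, 0.117 and 0.517 in Obese-MSCs and 0.689, 1.64 and 1.35 in Lean-MSCs, which largely restates the APEX2 values, since the APEX1 means were alike. With vitamin-C, APEX1 had 39.2, 20.3 and 15.9 normalized counts against 19.8, 26.7 and 19.6 without. The treated group held both the highest and the lowest library, and its log2 ratio of 0.19 became -0.28 without the highest, the treated library numbered 4 (exact permutation p = 0.8, limma adjusted p = 1.00).

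The genes on each side of APEX2 did not share its separation. PFKFB1, a regulator of glycolysis that ends 3602 bp before APEX2, had 27.4, 34.1 and 58.1 normalized counts in Obese-MSCs and 36.4, 39.7 and 53.4 in Lean-MSCs. ALAS2, the first enzyme of haem synthesis in red cell precursors, starts 939 bp after APEX2 and had 11.5, 9.41 and 19.6 in Obese-MSCs and 12.6, 18.9 and 16.4 in Lean-MSCs. The groups overlapped for both neighbours, with log2 ratios of -0.11 and -0.24. On the whole of chromosome X, 3.39% of 709 genes met the criteria as low in Obese-MSCs, against 2.39% of 18215 autosomal genes, and the median log2 ratio was -0.081 on chromosome X and 0.0092 on the autosomes. Whether these shares differ was not tested. No other gene of the annotation overlaps APEX2, whereas OSGEP overlaps APEX1 by 272 bp, CAMK1 overlaps OGG1 by 766 bp, TOE1 overlaps MUTYH by 718 bp and the lncRNA LOC102158857, which was in neither table, overlaps NEIL1 by 545 bp, so reads on shared exons of those pairs may not be separable. Of the 23 annotated neighbours of the repair genes that were in both tables, 0 met the criteria in either comparison. Among all genes the shares were only 4.5% and 1.92%, so this count is not read further.

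**Figure D2:**
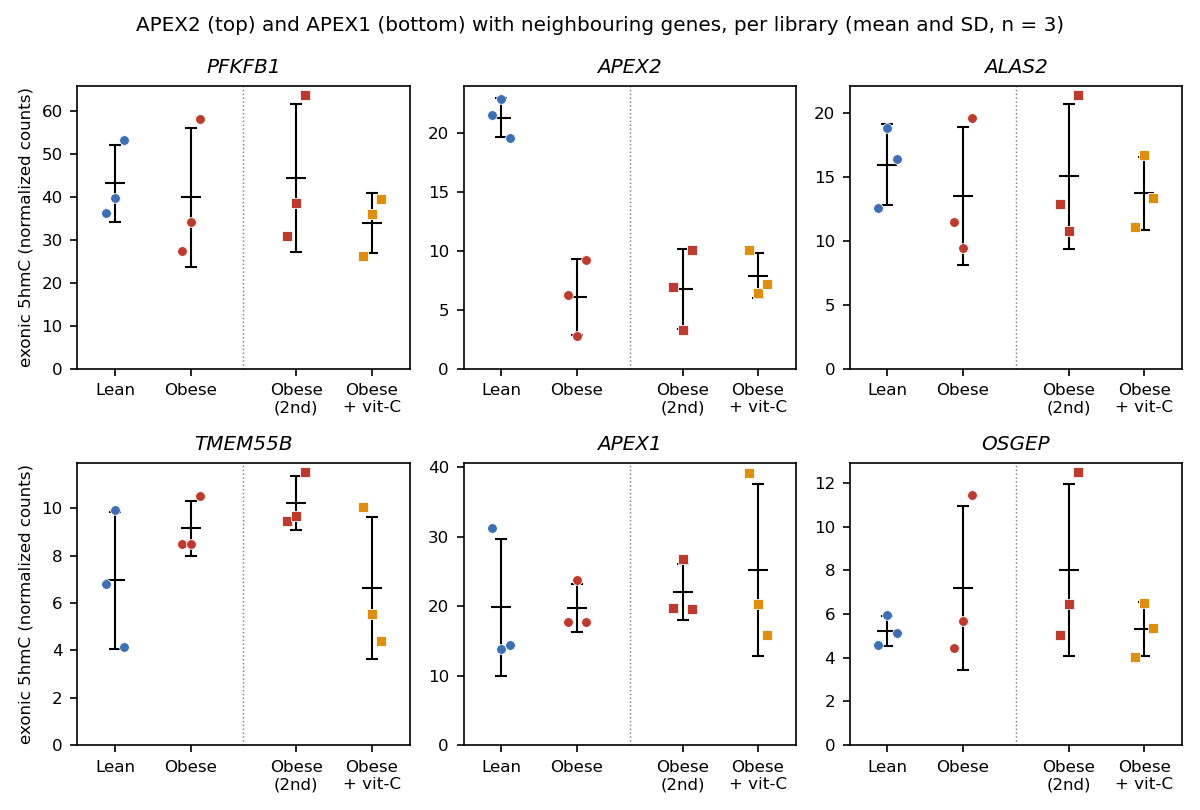
Exonic 5hmC in normalized counts of APEX2 with the flanking genes PFKFB1 and ALAS2 (top) and of APEX1 with TMEM55B and the overlapping OSGEP (bottom), in every library with mean and SD (n = 3) and colours as in the plot of all 10 genes. The Obese and Lean points are apart for APEX2 and overlap for the other 5 genes.

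The genes most like APEX2 across the 6 Obese and Lean libraries were STAT2, FSHR and SYT3. Likeness was the mean absolute difference of centred log2(value + 1), which was 0.304, 0.307 and 0.330 for these genes, among the 9467 genes with the highest means. STAT2 on chromosome 5, a transducer of interferon signals, had 14.7, 6.50 and 27.6 normalized counts in Obese-MSCs and 32.8, 30.8 and 33.9 in Lean-MSCs. FSHR on chromosome 3, the receptor for follicle-stimulating hormone, had 12.6, 6.57 and 11.7 against 26.0, 26.8 and 23.6, and SYT3 on chromosome 6, a synaptotagmin, had 51.3, 42.6 and 56.3 against 114, 132 and 113. These genes were picked for their likeness to APEX2 in those libraries, so their shared pattern there is no observation of its own. With vitamin-C the log2 ratios were 0.10 for STAT2, 0.48 for FSHR and 0.060 for SYT3, beside 0.22 for APEX2. The treated and untreated groups were apart for FSHR and overlapped for the other genes. The untreated libraries are the Obese libraries in which these genes were picked for likeness to the low APEX2. Their vitamin-C ratios are thus no separate observation, and no test is read from them.

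Among the glycosylase genes, SMUG1 met the criteria with vitamin-C. SMUG1 removes uracil and 5-hydroxymethyluracil, the base that deamination of 5hmC would leave, and the gene lies on chromosome 5 from 19375244 to 19412656. Treated libraries had 12.1, 13.0 and 12.5 normalized counts and untreated libraries 8.68, 5.42 and 8.96. Every treated library was above every untreated one, and the treated libraries differed little among themselves. The means were 12.5 ± 0.446 and 7.69 ± 1.97 (SD, n = 3 each), and the log2 ratio of 0.70 was higher than or equal to 97.3% of the ratios of 15642 genes that had a unique name and at least 3 normalized counts in both groups. By exact permutation (two-sided) p was 0.1, which is as small as 3 libraries against 3 can give. The limma fit gave SMUG1 an unadjusted p of 0.0858 and an adjusted p of 1.00, with a difference of 0.67 ± 0.36 (SE) on the log2(value + 1) scale.

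The SMUG1 call was 1 of 10 repair genes, where 1.11% of all genes met the criteria as high. By limma, 0 of the 7 repair genes fitted had an unadjusted p of 0.05 or less, against 0.974% of all genes. The 7 include APEX2, which is a description only. Without any 1 library the log2 ratio of SMUG1 stayed between 0.51 and 0.83. SMUG1 no longer met the criteria when the treated library numbered 5 was left out, or with a p threshold of 0.01. In the first table SMUG1 had 7.85, 4.69 and 8.17 normalized counts in Obese-MSCs and 7.96, 6.94 and 11.3 in Lean-MSCs, and the groups overlapped with a log2 ratio of -0.34.

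UNG encodes the main uracil-DNA glycosylase, which removes uracil that was misincorporated or made by deamination, and lies on chromosome 14 from 41746498 to 41757841. It carried low values, with 3.02, 2.75 and 4.52 normalized counts in treated and 5.21, 3.26 and 5.14 in untreated libraries. The groups overlapped, and the log2 ratio was -0.40 (exact permutation p = 0.2). In the first table, the log2 ratio in Obese- versus Lean-MSCs was -0.056, from 4.71, 2.81 and 4.68 against 5.58, 1.98 and 5.13. The ratio of SMUG1 to UNG within a library was chosen after the values were seen. It was 4.00, 4.71 and 2.77 in treated and 1.67, 1.66 and 1.74 in untreated libraries. In the first table it was 1.67, 1.67 and 1.75 in Obese-MSCs and 1.43, 3.51 and 2.20 in Lean-MSCs. This ratio restates the SMUG1 and UNG values, rests on the low values of UNG and was not tested.

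NEIL3 was the other repair gene whose groups did not overlap with vitamin-C, and it was lower in treated libraries. NEIL3 encodes a glycosylase of the Fpg/Nei family that acts on oxidised bases in single-stranded DNA and on interstrand crosslinks, and the gene spans 216241 bp of chromosome 15. Treated libraries had 17.1, 16.7 and 11.5 normalized counts and untreated libraries 18.9, 22.5 and 23.2. The means of 15.1 ± 3.11 and 21.5 ± 2.30 (SD, n = 3 each) gave a ratio of 0.701, a log2 ratio of -0.51, just outside the threshold of 0.7 (exact permutation p = 0.1, limma adjusted p = 1.00). After rescaling by size factors or quantile normalization NEIL3 met the criteria as low. Groups that did not overlap were seen in 2 of the 10 repair genes and in 5.91% of all genes in this comparison, NEIL3 being 1 gene that was lower (2.67% of all genes) and SMUG1 1 gene that was higher (3.24%). In Obese- versus Lean-MSCs, NEIL3 had 16.9, 19.9 and 21.1 normalized counts against 20.1, 14.9 and 9.29, with overlapping groups and a log2 ratio of 0.39.

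The other Fpg/Nei glycosylase genes overlapped between groups in both comparisons. NEIL1, whose product removes oxidised pyrimidines, had 9.24, 8.50 and 12.8 normalized counts in Obese-MSCs and 3.59, 6.95 and 13.3 in Lean-MSCs. Treated libraries had 7.05, 12.9 and 23.6 and untreated libraries 10.3, 9.69 and 14.0. Its log2 ratios were 0.36 in both comparisons, and the second became -0.18 without the treated library numbered 6. NEIL2, which acts on oxidised bases in bubble and transcribed DNA, had 7.44, 0 and 2.44 normalized counts in Obese-MSCs and 0.0672, 4.97 and 2.06 in Lean-MSCs. In the second table it had 1.01, 3.74 and 2.68 with vitamin-C and 8.04, 0.0546 and 2.73 without, too low for a fold change.

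OGG1, MUTYH and NTHL1 belong to the helix-hairpin-helix family, and their groups also overlapped in both comparisons. OGG1 removes 8-oxoguanine, the commonest oxidised purine, and OGG1 carried 24.7, 10.3 and 15.4 normalized counts in Obese-MSCs and 11.5, 17.9 and 22.6 in Lean-MSCs. Treated libraries had 20.1, 13.8 and 14.3 and untreated libraries 27.1, 11.9 and 17.0, a log2 ratio of -0.22 that became 0.15 without the untreated library numbered 1. MUTYH removes adenine paired with 8-oxoguanine and had 6.26, 5.69 and 4.78 in Obese-MSCs against 4.67, 7.94 and 10.2 in Lean-MSCs, a log2 ratio of -0.45. With vitamin-C, MUTYH had 3.02, 11.3 and 4.40 against 6.94, 6.44 and 5.30. The treated libraries thus spread on both sides of the untreated ones, and the difference in means was near 0. NTHL1, a glycosylase for oxidised pyrimidines, had 1.14, 0.992 and 1.03 in Lean-MSCs, near the size of 1 step in those libraries, and 4.20, 0 and 0.0579 in Obese-MSCs. It had 3.02, 1.80 and 5.46 with vitamin-C and 4.51, 0.0272 and 0.0969 without, and no fold change is given.

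Across the 10 repair genes, 0 met the criteria as high and 1, APEX2, as low in Obese- versus Lean-MSCs, beside 2.07% and 2.43% of all genes. The count includes the gene that the set was built around and is not read further. With vitamin-C, 1 met them as high and 0 as low, beside 1.11% and 0.806%. The median log2 ratio of the 8 genes with at least 3 normalized counts in both groups was -0.050 in the first comparison and 0.095 in the second, beside 0.0064 and 0.0023 over all genes. The 8 glycosylase genes together summed to 81.3, 51.9 and 69.4 normalized counts in Obese-MSCs and to 54.7, 62.5 and 74.9 in Lean-MSCs. The corresponding sums were 66.4, 76.0 and 78.9 in treated and 89.7, 59.3 and 76.4 in untreated libraries, and the groups overlapped in both tables.

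**Figure D3:**
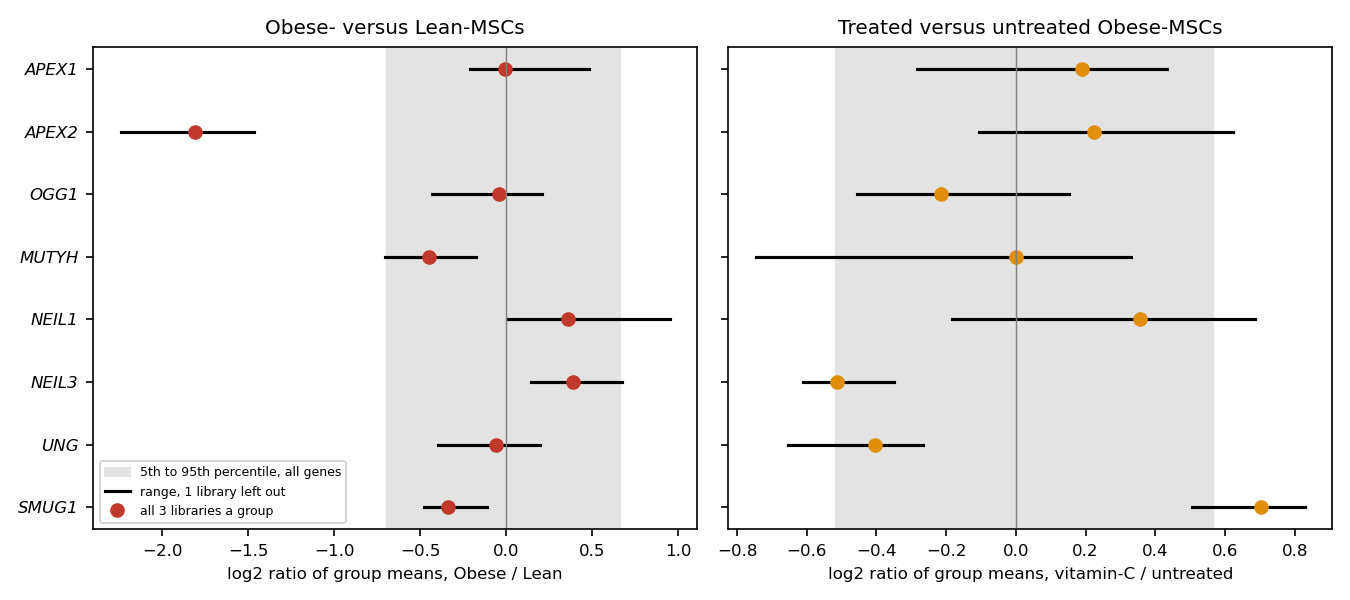
Log2 ratio of group means for the 8 repair genes with at least 3 normalized counts in both groups of each comparison. Points use all 3 libraries of each group, black lines give the range when 1 library is left out, and the grey band runs from the 5th to the 95th percentile of all genes. In Obese / Lean, APEX2 lies at -1.81, far below the band, and in vitamin-C / untreated SMUG1 lies above it at 0.70.

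The partners of these enzymes in the same pathway were taken from a list of 27 genes for other glycosylases, AP site protection, gap filling, ligation and single-strand break signalling. Of these, 25 were in the first table and 26 in the second, where HPF1 was not found in either and MPG only in the second. In Obese- versus Lean-MSCs 0 of 25 met the criteria as high and 1 as low, and with vitamin-C 1 of 26 as high and 0 as low. Among all genes 4.5% and 1.92% met the criteria in either direction. Groups did not overlap in 3 of 25 partners in the first comparison and 3 of 26 in the second, beside 11.8% and 5.91% of all genes. The median log2 ratio of partners was 0.11 in the first comparison and 0.025 in the second.

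HMCES, the low partner, encodes a protein that shields AP sites in single-stranded DNA by a covalent bond. It had 9.47, 9.51 and 3.77 normalized counts in Obese-MSCs and 14.7, 15.9 and 14.4 in Lean-MSCs, so the groups were apart, with Obese-MSCs the lower. Its log2 ratio was -0.98, with a limma adjusted p of 0.679, and with vitamin-C it had 12.1, 4.54 and 8.04 against 10.4, 10.7 and 4.27. HMCES missed the criteria with the test on log2(value + 1), with a p threshold of 0.01 and without any 1 of the Lean libraries. PCNA, the sliding clamp of DNA synthesis, had the highest ratio of the partners in Obese-MSCs, with 16.8, 5.59 and 11.8 against 4.55, 4.96 and 5.13 normalized counts. The PCNA groups did not overlap, the log2 ratio was 1.22 and the criteria were not met (limma adjusted p = 0.704). In the second table PCNA had 17.1, 5.48 and 3.41 with vitamin-C and 18.4, 6.56 and 13.0 without. The libraries without vitamin-C are the Obese libraries of the first comparison. The groups overlapped, and the log2 ratio of -0.54 was the lowest among partners with at least 3 normalized counts in both groups. POLB, the main gap-filling polymerase of the pathway, was also lower in treated libraries, with 3.02, 2.78 and 1.75 normalized counts against 6.89, 4.36 and 10.1. Its groups did not overlap and it missed the criteria (limma unadjusted p = 0.0369, adjusted p = 1.00), and no fold change is given because its treated mean was 2.52. MPG went the other way without overlap, also at low values. It had 1.01, 2.77 and 4.55 normalized counts in treated libraries against 0 in all untreated ones, and missed the criteria.

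TDP1, which clears blocked 3′ ends such as those left at trapped topoisomerase I, was the partner that met the criteria with vitamin-C. Treated libraries had 21.1, 27.8 and 24.2 normalized counts and untreated libraries 13.7, 19.3 and 18.1, with no overlap and a log2 ratio of 0.52 (exact permutation p = 0.1, limma adjusted p = 1.00). The call was lost without any 1 of 5 libraries, the exception being the treated library numbered 4. In Obese- versus Lean-MSCs TDP1 had 12.2, 17.1 and 16.4 against 19.3, 19.9 and 22.6, again with no overlap and a log2 ratio of -0.43 that did not meet the criteria. The untreated libraries are shared by both comparisons.

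The glycosylase TDG, which removes the oxidised products of 5hmC, had 18.1, 18.1 and 9.72 normalized counts in Obese-MSCs and 8.03, 14.9 and 8.24 in Lean-MSCs. With vitamin-C its mean was 11.9 ± 1.19 against 17.0 ± 5.39 without (SD, n = 3 each). Groups overlapped in both comparisons, with log2 ratios of 0.56 and -0.51, which share the untreated Obese libraries. The genes of the enzymes that make 5hmC, TET1, TET2 and TET3, met the criteria in neither comparison, and their log2 ratios ran from -0.32 for TET1 to 0.15 for TET3 in Obese- versus Lean-MSCs and from -0.26 to 0.14 for the same genes with vitamin-C.

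**Figure D4:**
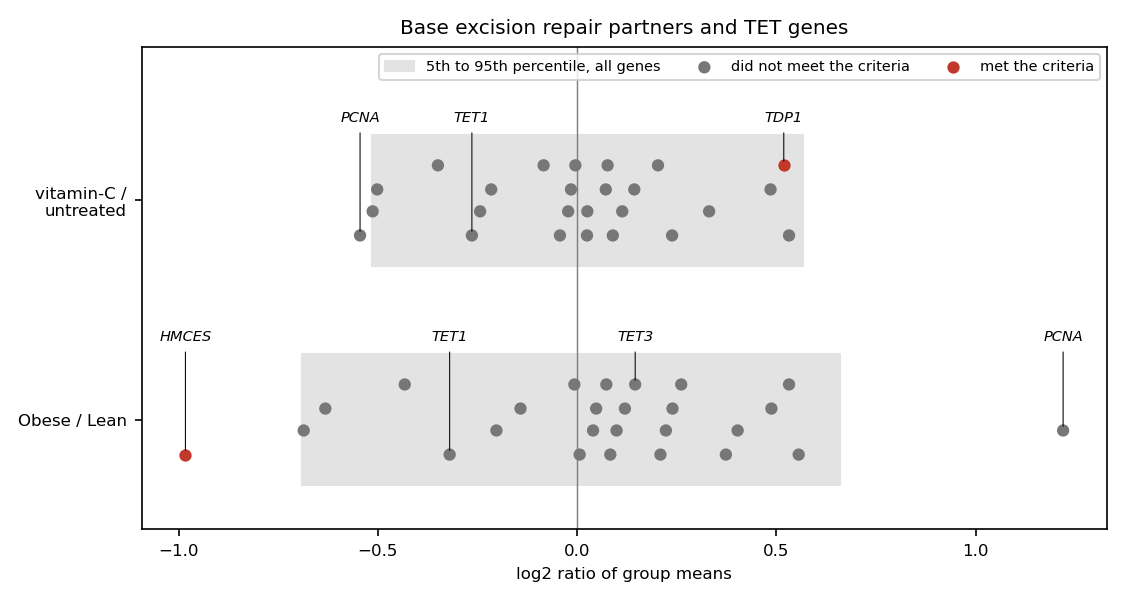
Log2 ratios of group means of the pathway partners and the TET genes with at least 3 normalized counts in both groups (1 point a gene, spread vertically for legibility, 1 partner not plotted), with the 5th to 95th percentile of all genes in grey. HMCES at -0.98 and TDP1 at 0.52 are the points that met the criteria. Of the points plotted, PCNA has the highest ratio in Obese / Lean at 1.22 and the lowest in vitamin-C / untreated at -0.54. Both ratios use the same untreated Obese libraries, on opposite sides.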

How the data were processed

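Libraries of swine MSCs were grouped from the submitters' labels as Lean-MSCs, untreated Obese-MSCs and vitamin-C-treated Obese-MSCs (3 each). The authors aligned paired reads to susScr 11.1 with Bowtie 2 (v2.3.3.1), removed duplicates with Picard (v1.67), counted exonic reads per gene with HTSeq (v0.9.1) and processed them with edgeR (v3.28.1). The deposited values are this normalized 5hmC signal per gene, equalized by the authors over the 6 libraries of each table, so depth in reads is not known, no counting intervals were computed, and a change of total 5hmC would not be visible. The gene annotation used for counting is not given in the sources used here. Numerical residue in the second table (645 values) was set to 0, and 25 gene names there had become dates. All columns were used.

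Tests were made within a table. The study's criteria were applied to deposited values, and limma 3.58.1 in R 4.3.3 was fitted with a trend to log2(value + 1) over the upper 80% of genes by mean. UNG in the second table and NEIL2 and NTHL1 in both fell below that filter. Permutation tests were two-sided and exact over 20 arrangements. The equal-variance test and limma set the difference of group means against the spread within groups of 3 libraries. Permutation p-values rank that difference among the arrangements. Python 3.11.15, numpy 2.4.6, pandas 2.3.3, scipy 1.17.1 and matplotlib 3.10.9 served for the rest. Positions are those of RefSeq on Sscrofa11.1, found by symbol for all 10 genes. The procedure was run on simulated data in which only genes above the median level were changed, so recovery of lower genes was not assessed. Alternatives were other thresholds, filters, pseudocounts, variance models and normalizations, medians, and each library left out in turn.

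The repair genes and lists were chosen with earlier results of these data known. Named besides them are partners and TET genes that met the criteria or had the highest or lowest ratio of their list, genes that overlap or flank APEX1 and APEX2, and the 3 genes most like APEX2. TDG was named for its role, POLB and MPG for their values, and SMUG1 with UNG as a ratio, after values were seen. P-values adjusted over the repair genes alone are not given, and 1 partner that the rule names is not reported here. Human libraries, mRNA and protein were not analysed here, and no genome, exon or protein sequence was used.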

Additional observations from a re-analysis of the deposited data

How the results depend on the processing

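The count of repair genes that met the criteria in Obese-MSCs, which includes APEX2, for which the set was chosen, ran from 1 to 2 when 1 library was left out. MUTYH was added without the Lean library numbered 7, and NTHL1 without the untreated library numbered 1. NTHL1 then rested on 0 and 0.0579 normalized counts in Obese-MSCs against 1.14, 0.992 and 1.03 in Lean-MSCs, all under 3. With vitamin-C the count of 1 became 0 at a p threshold of 0.01, 2 after size factors and 2 after quantile normalization, and ran from 0 to 2 when 1 library was left out (NEIL3 being the second gene, also without the untreated library numbered 1). For pathway partners in Obese-MSCs the count of 1 became 0 at that threshold and 0 with the test on log2(value + 1), and ran from 0 to 3 without 1 library. With vitamin-C it became 0 at the same threshold, 3 on log2 values and 3 after quantile normalization, and ran from 0 to 2. Of the 3, MPG and POLB were added to TDP1, with means under 3 normalized counts in a group. Over all genes, 852 met the criteria in Obese-MSCs and 364 with vitamin-C, and 216 and 66 at the p threshold of 0.01. With vitamin-C, 231 met them in the upper 80% by mean, 362 after size factors and 377 after quantile normalization. With the test on log2(value + 1), 862 met them in Obese-MSCs and 364 with vitamin-C. Without 1 library, the counts over all genes ran from 763 to 955 and from 387 to 534. The limma count in Obese-MSCs was 0 to 1 without 1 library, 1 gene passing without the untreated library numbered 1 and 1 without that numbered 2, and with vitamin-C it was 0 throughout, with 35 to 309 genes at an unadjusted p of 0.05 or less. Adjusted limma p-values of the repair genes with vitamin-C, APEX2 among them as a description only, were 1.00 in all fits. Of 98 unadjusted ones, 1 was at or below 0.05, that of SMUG1 without a variance trend (0.0426). The causes were not tested.

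With 1 library left out, log2 ratios with vitamin-C changed sign for APEX1 (-0.28 to 0.43), APEX2 (-0.10 to 0.62), OGG1 (-0.45 to 0.15), MUTYH (-0.75 to 0.33) and NEIL1 (-0.18 to 0.69), and in Obese- versus Lean-MSCs for APEX1 (-0.21 to 0.48), OGG1 (-0.43 to 0.21) and UNG (-0.40 to 0.20). MUTYH, near 0, was also -0.55 as a ratio of medians, -0.16 as a difference of log2(value + 1), -0.0069 after size factors and -0.031 after quantile normalization. No paired analysis was possible because the groups share no replicate numbers. Values of a few normalized counts, as for NTHL1, NEIL2 and UNG, limit what 3 libraries can show.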
